A study of Bos taurus with 16 samples.

Results

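Probes for 10 inflammatory and regulatory cytokine genes, of 20602 gene names on a bovine oligonucleotide array, were compared between endometrial and blood CD14+ cells of pregnant cows. They were IL1A, IL1B, IL1RN, IL6, IL10, IL12B, IL15, IL18, TNF and TGFB1. Members were all probes whose gene name in the scanner files, or whose symbol in the probe description, was 1 of these 10. This gave 11 of 21475 probes, with 2 for TNF and 1 for every other gene. No further probe matched a member through the ARS-UCD2.0 gene table of RefSeq.

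The cells came from 4 cows killed at an abattoir at estimated days 164, 239, 242 and 248 of pregnancy, animals 1 to 4 here, with no treatment named in the labels. CD14+ cells were sorted by flow cytometry from collagenase-dispersed endometrium taken between the placentomes, the sites of attachment of the bovine placenta, and from mononuclear cells of blood drained from the heart of the same cow. Only the endometrial cells went through collagenase, and amplified RNA was hybridised. Every array held both tissues of 1 cow in 2 dyes, each cow was hybridised on 2 arrays, and the dyes were swapped between these in animals 1, 2 and 4. The 1 cow at mid pregnancy is also 1 animal, so day of pregnancy and animal cannot be told apart.

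Monocytes and macrophages are main sources of these cytokines. IL1A and IL1B signal through the same receptor, which IL1RN occupies without signalling, and TNF and IL6 act with them early in inflammation. IL12B, IL15 and IL18 act on T and NK cells, whereas IL10 and TGFB1 restrain inflammation, and pregnancy is a state in which endometrial macrophages are often described as regulatory.

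The level of a transcript is given as the authors' log2 normalised intensity, on which a difference of 1 is a fold of 2, and levels are comparable only within a probe. A level of 1 tissue in 1 animal is the mean of 2 arrays, and these 2 differed for a member by at most 0.89 on the log2 scale where the probe was tested and by 1.34 for IL12B. The log2 ratio is that of endometrium over blood within an animal. A probe was called different at an adjusted p of at most 0.05 in limma and a fold over 2.

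What a probe measures depends on where its 60 bases lie. Of the 11 oligonucleotides, 2 held AATAAA, the signal of polyadenylation at the end of a transcript, on the strand of the probe, compared with 11.8% of all probes. They were the IL15 probe and the TNF probe A_73_111827. The other TNF probe, A_73_120282, was taken to lie in coding sequence, as were the probes of IL18 and TGFB1, without alignment to a transcript. These 3 are shown because that would place the measurement within the coding part of the transcript. Each had at least 2 reading frames free of stop codons, but so had the probes of IL1A, IL1B, IL6 and IL10. The positions of the other member probes in their transcripts were not determined.
TNF (A_73_120282): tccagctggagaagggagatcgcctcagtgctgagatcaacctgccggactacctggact
IL18 (A_73_111391): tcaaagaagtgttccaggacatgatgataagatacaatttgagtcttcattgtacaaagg
TGFB1 (A_73_111797): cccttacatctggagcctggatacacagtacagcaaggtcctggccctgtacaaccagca

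The labelled cell type was first checked against its markers. CD14, the surface protein used in the sort, had a log2 level of 16.12 in the blood cells of animal 1, and of 5.76, 8.85 and 6.94 in those of animals 2, 3 and 4. In endometrial cells it was 14.04 in animal 1, and 6.07, 9.50 and 7.37 in the others. CD14 RNA was thus high in both preparations of animal 1 and lower in the 6 preparations of the other animals, although all 16 channels were well above background for it. Over the monocyte and macrophage list, 5 of 8 probes were higher in both preparations of animal 1 than in the other 6, compared with 7.99% of all tested probes, and the mean log2 level of its 6 tested probes was 13.93 and 14.20 in blood and endometrium of animal 1, 7.67 to 8.90 in other blood and 8.48 to 10.93 in other endometrium. Both probes of LYZ, lysozyme, were not well above background in any channel.

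Markers of lymphocytes had the opposite order. The mean level of 9 T and NK cell probes was 7.58 and 9.70 in blood and endometrium of animal 1, and 11.87 to 13.65 in the other 6 preparations. In 7 of the 9, both preparations of animal 1 were below all others, compared with 12.2% of all tested probes. CD3D, a chain of the T cell receptor complex, had a level of 5.40 in the blood of animal 1 and of 10.35 to 12.67 in the other blood preparations. The 5 granulocyte probes had a mean of 11.40 in the blood of animal 1 and 5.59 to 7.62 in that of the others. For the RNA of CD14 and of lymphocyte markers, the preparations of animals 2, 3 and 4 thus went against their label. That label rests on CD14 protein at the cell surface, which RNA levels do not measure. By flow cytometry after sorting, the authors report nearly all blood cells and the large majority of endometrial cells as CD14+. Because of the RNA levels, mean ratios of the tested cytokine probes are given with and without animal 1.

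Of the other macrophage markers, AIF1, CSF1R and CD163 were higher in endometrium than in blood of animals 2, 3 and 4. CD68 was higher in endometrium of animals 1, 3 and 4, and had a log2 ratio of -0.31 in animal 2. ITGAM went the other way in animals 1, 2 and 3, with a mean log2 ratio of -1.36 toward blood. It was well above background in 4 of 8 blood and 2 of 8 endometrial channels. AIF1, a cytoplasmic protein of macrophages, had levels of 16.07, 14.53, 16.07 and 16.09 in endometrium of animals 1 to 4, next to 16.07, 12.06, 11.49 and 11.47 in blood. CSF1R, the receptor that maintains macrophages, was at 10.71 to 13.01 in endometrium of animals 2 to 4 and at 6.67 to 9.33 in their blood, and CD163, a scavenger receptor, at 9.58 to 13.19 and 8.59 to 9.69. Of the 6 tested probes of this list, 0 were called and 4 passed toward endometrium at an unadjusted p of 0.05 and a fold over 2, compared with 7.98% of all tested probes, with a median log2 ratio of 1.95. In bulk preparations, fewer cells of a type and less RNA per cell cannot be told apart.

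**Figure D1:**
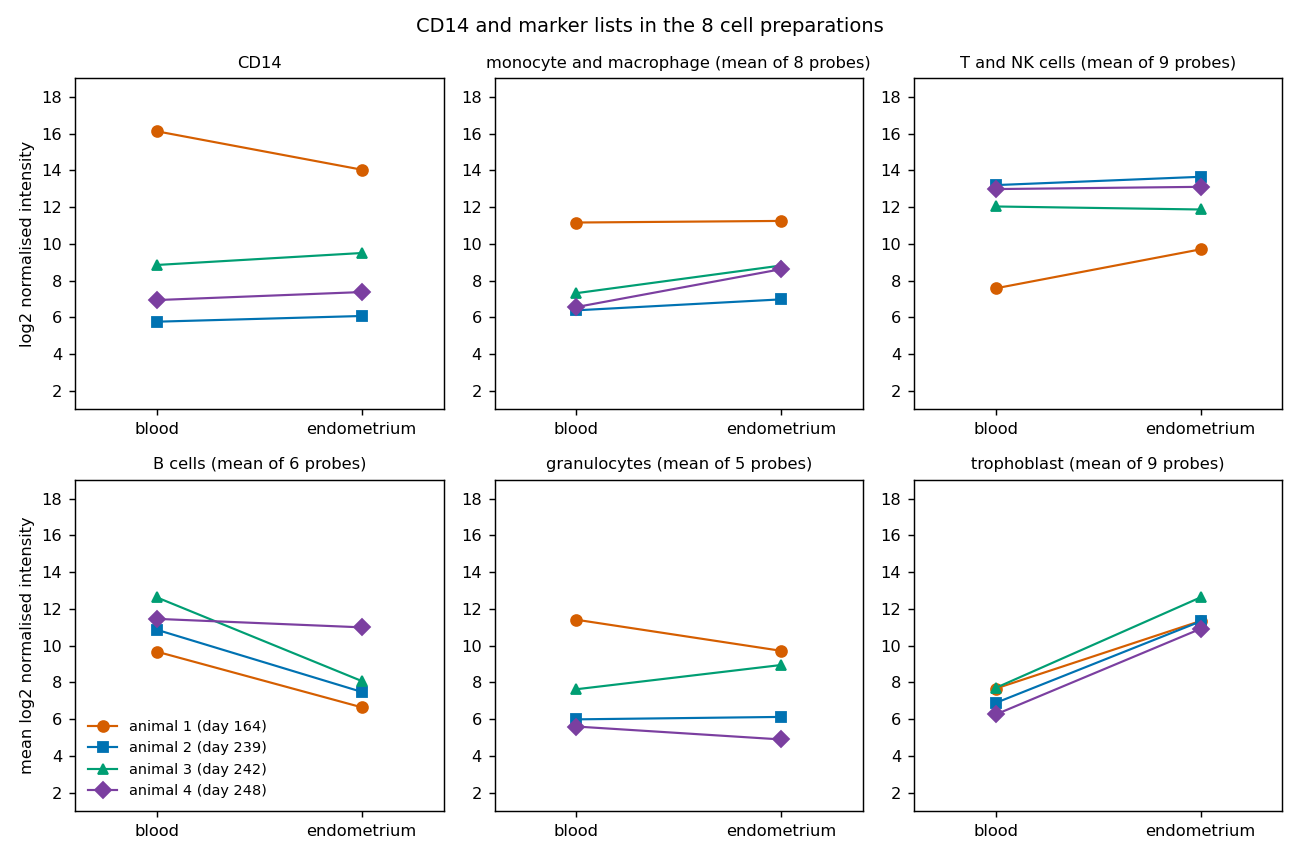
Log2 normalised intensity of CD14 and mean log2 normalised intensity of 5 marker lists (y axis) in blood and endometrial CD14+ cells (x axis), with 1 line per animal. CD14 and the monocyte and macrophage list were highest in animal 1, the T and NK cell list was lowest in animal 1, and the trophoblast list was higher in endometrium in all 4 animals.

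Markers of other uterine cells and of stress differed between the tissues. Of 8 tested probes for trophoblast, the outer cell layer of the placenta, 7 were called higher in endometrium, and the mean level of the list was 6.25 to 7.70 in blood and 10.91 to 12.62 in endometrium. Of 9 epithelial probes, 6 were called higher in endometrium. Of 8 tested stromal probes 2 were, and the mean level of that list was 13.17 in endometrium of animal 1, 4.21 to 7.91 in that of the others and 3.86 to 7.60 in blood. Among stress genes, 2 of 8 heat shock probes were called higher in endometrium, HSPA6 with a log2 ratio of 5.80 and HSPA1A with 3.70, and 5 passed the unadjusted threshold. Of 10 immediate early probes 0 were called, and 5 passed the unadjusted threshold toward endometrium. Over all tested probes, 1.22% were called higher in endometrium and 7.98% passed the unadjusted threshold in that direction. For B cells the mean of 6 probes was 9.66 to 12.62 in blood and 6.64, 7.48, 8.07 and 10.99 in endometrium of animals 1 to 4. These lists move with every comparison of the tissues given here, and their part in the cytokine values was not tested. The columns of the value table matched the scanner files only when the files of an animal's 2 arrays were exchanged, and the tissue of a channel was taken from the table. Read as attached, the scanner files turn the tissues around in animals 1, 2 and 4 and not in animal 3. In animal 3, the same in both readings, the mean trophoblast level was 12.62 in endometrium and 7.70 in blood. By the table, endometrium was also the higher tissue for this list in animals 1, 2 and 4. As attached, blood would be the higher tissue there.

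Between the tissues, 0 of 9 tested cytokine probes were called, whereas 224 of 16654 probes were, or 1.35%, 204 of them toward endometrium. IL12B and IL15 were not tested because they were well above background in animal 1 only. With the p left unadjusted, at most 0.05, and the fold kept over 2, 4 of the 9 passed. IL18 passed toward endometrium, 1 of 9 in a direction in which 7.98% of all tested probes passed, and IL1B, IL10 and TGFB1 passed toward blood, 3 of 9 against 8.05%. Without animal 1, 0 of the 9 passed, against 12.6% of all probes, and 0.384% of all probes were called after adjustment. The log2 ratio had the same sign in 4 of 4 animals for 4 of the 9, against 25.0% of all probes, and in 0 of the 9 did the levels of the tissues fail to overlap, against 6.06%. The 95% interval of a ratio gives the sizes of difference that the 4 animals allow.

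**Figure D2:**
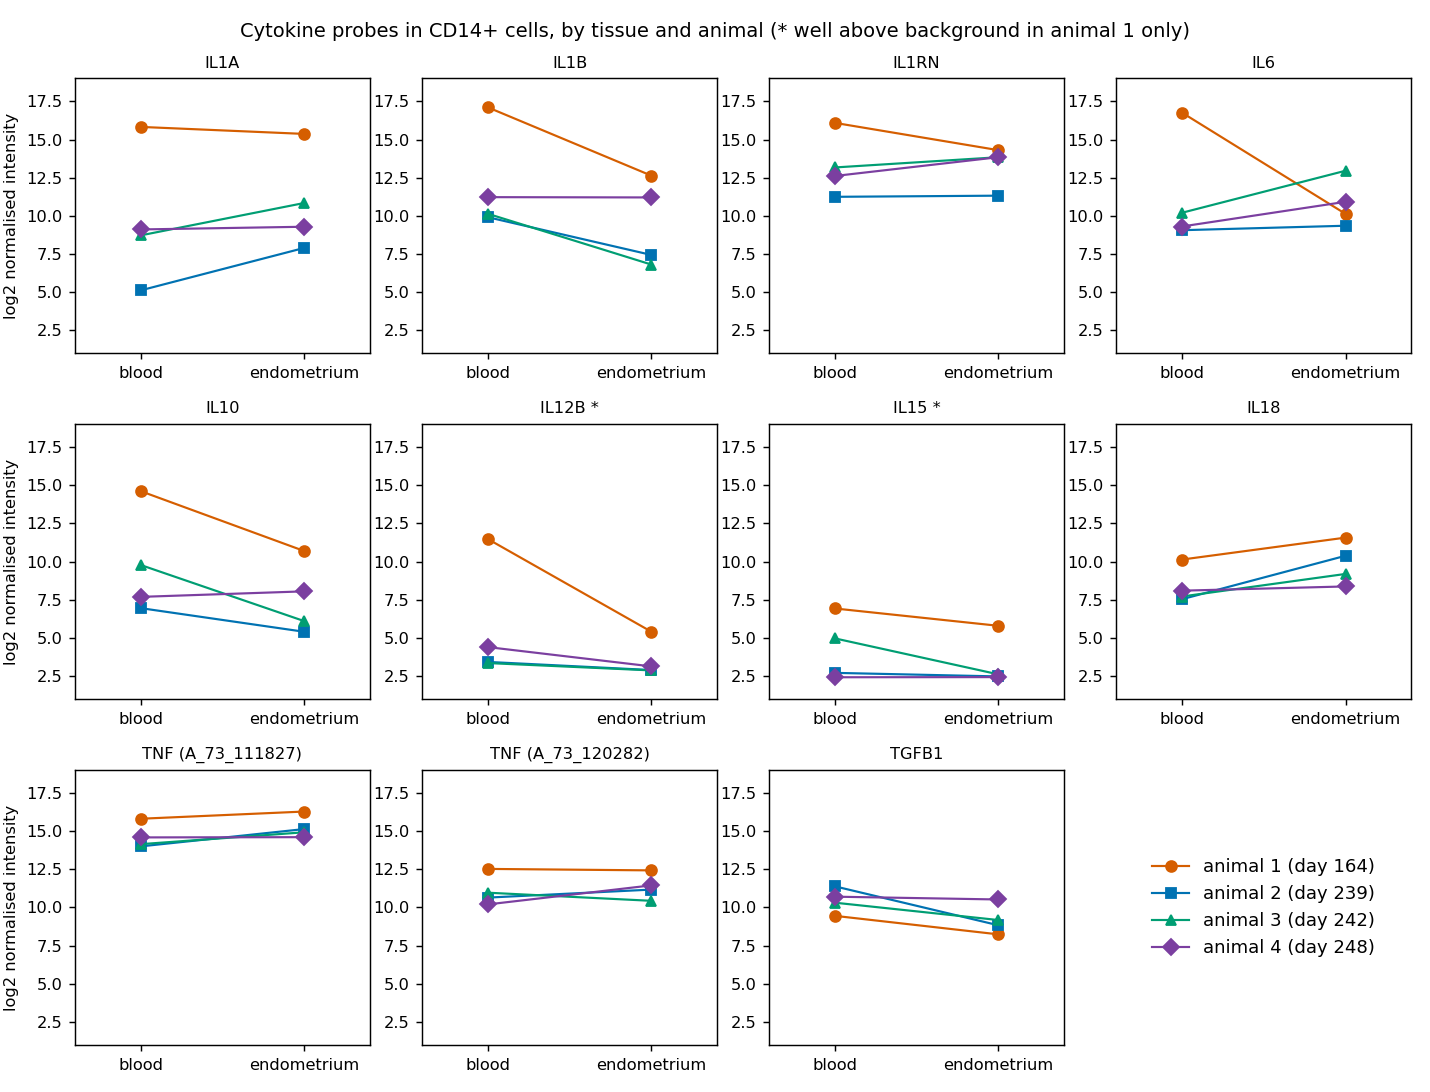
Log2 normalised intensity (y axis) of the 11 cytokine probes in blood and endometrial CD14+ cells (x axis), with 1 line per animal and each point the mean of 2 arrays. Blood of animal 1 was the highest blood preparation for every probe except that of TGFB1, where it was the lowest.

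IL1B, the IL1 that is secreted after cleavage by caspase 1, had log2 levels of 17.11, 9.92, 10.14 and 11.23 in the blood cells of animals 1 to 4. In endometrial cells they were 12.63, 7.44, 6.81 and 11.21. Blood was above endometrium in 3 animals by more than 2 and in animal 4 by 0.02, while the level in endometrium of animal 1 lay above 3 of the 4 blood levels. The mean log2 ratio was -2.57 ± 0.75 (SE, n = 4), 5.96-fold toward blood, with a 95% interval of -4.36 to -0.79 and a limma adjusted p of 0.202. Without animal 1 it was -1.94 ± 0.79, with an adjusted p of 0.397 in limma.

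IL1A, which is active without such cleavage and lies next to IL1B on the chromosome with 1 annotated gene between them, did not follow it. In blood cells its levels were 15.83, 5.12, 8.72 and 9.11, and in endometrial cells 15.37, 7.90, 10.84 and 9.29. Both tissues of animal 1 stood over 4 log2 units above the other 6 preparations. In the other animals endometrium was the higher tissue, by 2.78, 2.12 and 0.18. The mean log2 ratio was 1.16 ± 0.66, with an interval of -0.41 to 2.72 and an adjusted p of 0.431 in limma. Without animal 1 it was 1.69 ± 0.71, with an adjusted p of 0.405 in limma, and without animal 2 it was 0.61.

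Within an animal, the log2 ratio of IL1A exceeded that of IL1B by 4.02, 5.26, 5.45 and 0.20 in animals 1 to 4. The pair was therefore shifted the same way in 4 of 4 animals, and by little in animal 4. This contrast was chosen after the values were seen and was not tested.

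IL1RN, the receptor antagonist encoded in the same cluster with 8 annotated genes between it and IL1B, had levels of 16.09, 11.25, 13.17 and 12.61 in blood. The endometrial levels were 14.30, 11.32, 13.84 and 13.84. Blood was higher in animal 1 and endometrium in the other 3, by 0.07 to 1.23. Its mean log2 ratio was 0.05 ± 0.61, with an interval of -1.39 to 1.49 and an adjusted p of 0.982 in limma. Without animal 1 it was 0.66 ± 0.58, with an adjusted p of 0.647 in limma. The interval allows a difference of more than 2-fold either way, and the mean changed sign without animal 3 and without animal 4, as given with the other settings.

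TNF, the central early cytokine of macrophage activation, was measured by both of its probes in all 16 channels. With A_73_111827, levels were 15.81, 14, 14.15 and 14.59 in blood and 16.28, 15.13, 14.92 and 14.60 in endometrium. Endometrium was above blood in 4 of 4 animals, by 0.02 in animal 4 and by 1.13 in animal 2. The mean log2 ratio was 0.60 ± 0.46, with an interval of -0.48 to 1.68 and an adjusted p of 0.555 in limma. Without animal 1 it was 0.64 ± 0.58, with an adjusted p of 0.656 in limma.

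With A_73_120282, taken above to lie in coding sequence, blood levels were 12.53, 10.65, 10.97 and 10.20 and endometrial levels 12.43, 11.17, 10.44 and 11.45. Endometrium was higher in animals 2 and 4 and blood in animals 1 and 3. The mean log2 ratio was 0.29 ± 0.50, with an interval of -0.90 to 1.47 and an adjusted p of 0.823 in limma, and without animal 1 it was 0.41 ± 0.62, with 0.805. The probes agreed that animal 1 had the highest level in each tissue. Over the 8 preparations their levels had a Pearson r of 0.791, and over the 6 of animals 2 to 4, which share arrays in pairs, an r of 0.106, so that they ordered the remaining preparations differently.

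IL6, which signals through IL6R and the shared chain IL6ST, had the widest spread of ratios among the tested members. Its blood levels were 16.77, 9.06, 10.20 and 9.30, and its endometrial levels 10.13, 9.35, 12.96 and 10.92. Blood of animal 1 stood 6.57 log2 units above the next blood preparation, whereas its endometrium lay within the range of the others. The log2 ratio was -6.63 in animal 1 and 0.29, 2.75 and 1.62 in animals 2, 3 and 4. The mean of all 4 was -0.49 ± 1.45, with an interval of -3.91 to 2.92 and an adjusted p of 0.903 in limma. Without animal 1 the sign turned, to 1.56 ± 0.68 with an adjusted p of 0.418 in limma.

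**Figure D3:**
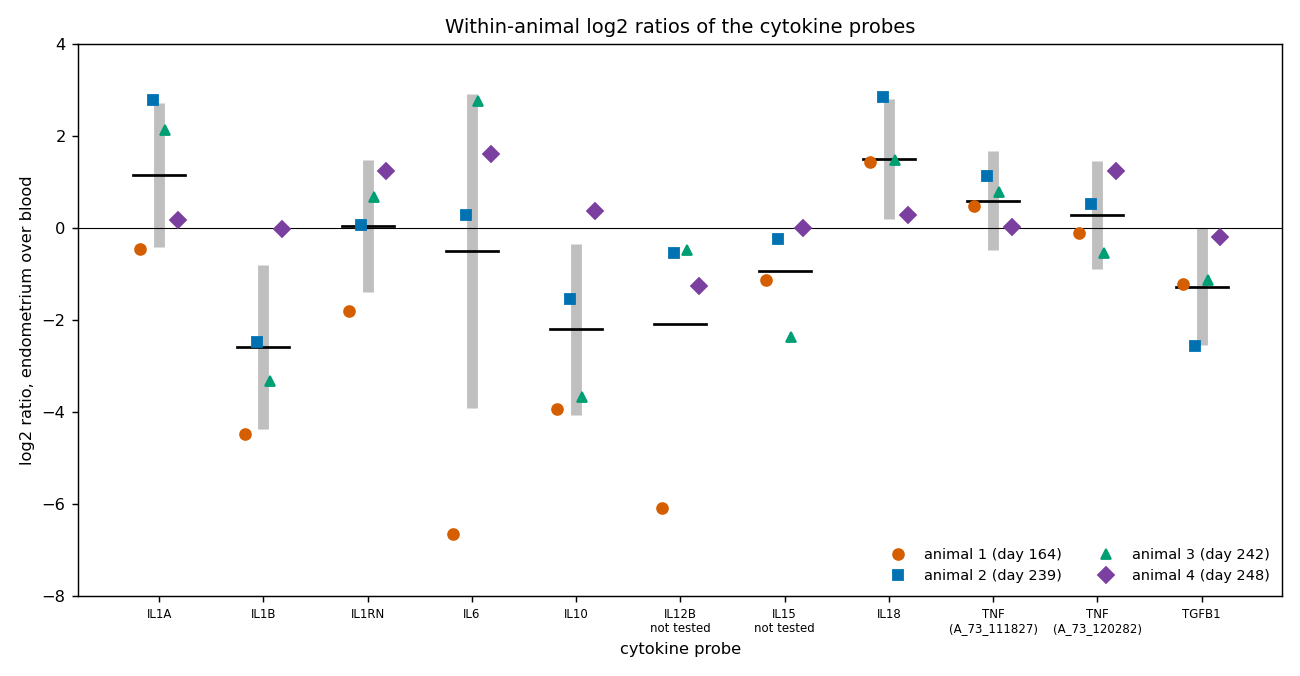
Log2 ratio of endometrium over blood (y axis) of the 11 cytokine probes (x axis), with a symbol per animal, a black line at the mean and a grey bar for the 95% interval from limma where the probe was tested. The ratio of IL6 was -6.63 in animal 1 and above 0 in the other 3 animals, while IL18 was above 0 and IL1B and TGFB1 were below 0 in all 4.

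Among cytokines that act on lymphocytes, IL18, a relative of IL1 that induces interferon gamma, had blood levels of 10.14, 7.54, 7.72 and 8.10. Its endometrial levels were 11.58, 10.39, 9.20 and 8.38. Endometrium was above blood in 4 of 4 animals, by 1.44, 2.85, 1.48 and 0.28, but the blood of animal 1 lay above endometrium of animals 3 and 4, so the tissues overlapped. The mean log2 ratio was 1.51 ± 0.55, or 2.85-fold, with an interval of 0.21 to 2.81 and an adjusted p of 0.261 in limma. Without animal 1 the ratio was 1.53 ± 0.69, with an adjusted p of 0.431 in limma.

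IL12B encodes the subunit shared by IL12 and IL23. It was well above background in both channels of each tissue of animal 1 and in none of the other animals. Its level was 11.49 in blood and 5.41 in endometrium of animal 1. In animals 2 to 4 the listed values, 3.36 to 4.41 in blood and 2.88 to 3.14 in endometrium, were not well above background.

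IL15, which maintains NK cells, was well above background in the same 4 channels only. Its levels in animal 1 were 6.94 in blood and 5.80 in endometrium. The values listed for the other animals were 2.43 to 4.98 in blood and 2.44 to 2.62 in endometrium. In these 3 animals IL12B and IL15 had no measured level from which a tissue difference could be taken.

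IL10, the cytokine that most directly shuts off macrophage activation, had levels of 14.62, 6.96, 9.78 and 7.69 in blood and of 10.70, 5.41, 6.11 and 8.06 in endometrium. Blood was the higher tissue in animals 1, 2 and 3, with log2 ratios of -3.92, -1.55 and -3.68, and endometrium in animal 4, with 0.36. The mean log2 ratio was -2.20 ± 0.79, or 4.59-fold toward blood, with an interval of -4.06 to -0.34 and an adjusted p of 0.254 in limma. Without animal 1 it was -1.62 ± 0.87, with an adjusted p of 0.479 in limma. As for IL1B, both preparations of animal 1 lay above the other 6.

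TGFB1, secreted in a latent form and widely made by leukocytes, had the reverse order within each tissue. Blood levels were 9.45, 11.39, 10.31 and 10.71, and endometrial levels 8.24, 8.83, 9.18 and 10.52. Animal 1 was lowest in each tissue. Blood was higher in 4 of 4 animals, by 1.21, 2.55, 1.14 and 0.18, with a mean log2 ratio of -1.27 ± 0.54, an interval of -2.54 to -0.0049 and an adjusted p of 0.310 in limma. Without animal 1 the ratio was -1.29 ± 0.68, with an adjusted p of 0.473 in limma.

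The position of animal 1 was shared by most members. Blood of animal 1 was more than 4-fold above the highest other blood preparation for 6 of 9 tested members, namely IL1A, IL1B, IL1RN, IL6, IL10 and IL18, compared with 7.19% of all tested probes, and also for IL12B. The excess was 6.72 log2 units for IL1A, 5.89 for IL1B, 2.92 for IL1RN, 4.84 for IL10, 7.08 for IL12B and 2.04 for IL18. Both preparations of animal 1 were above the other 6 for IL1A, IL1B, IL1RN, IL10 and both TNF probes, 6 of 9 tested, against 7.99% of all tested probes, and for IL12B and IL15. CD14 showed the same order, and T and NK cell markers the reverse. The part of cell composition in the cytokine levels was not tested, and 1 animal gives no error for a difference between animals.

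In animal 4 the levels of the tissues were close to each other for some cytokines and not for others. For 6 of 9 tested members, IL1A, IL1B, IL10, IL18, TGFB1 and the TNF probe A_73_111827, its log2 ratio was nearest to 0, compared with 41.0% of all tested probes. For IL6, IL1RN and the TNF probe A_73_120282 the log2 ratio of animal 4 was 1.62, 1.23 and 1.25. The endometrial B cell markers of animal 4, at a mean of 10.99 against 11.45 in its blood, were close to blood. Its trophoblast markers were not, at a mean of 10.91 in endometrium against 6.25 in blood. Without animal 4 the log2 ratio of IL1B was -3.43, with a limma adjusted p of 0.0982, and that of IL10 was -3.05, with an adjusted p of 0.139.

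Genes of the same pathways were taken from 4 lists with 58 genes and 61 probes, of which 53 were tested. Of these, 0 were called between the tissues. At the unadjusted p and the same fold, 3 passed toward endometrium and 10 toward blood, with a median log2 ratio of -0.72, next to -0.14 over all tested probes. Over all tested probes, 7.98% passed toward endometrium and 8.05% toward blood. Without animal 1 the mean ratio changed sign for 3 of the 53, IL10RA, THBS1 and LRRC32, and 0 were called. Of 16 probes for feedback genes and targets, 6 passed toward blood and 2 toward endometrium, with a median of -1.07. Without animal 1, 4 of the 16 passed toward blood, against 6.30% of all tested probes. The lists were chosen with earlier results of these data known, so these counts are no test of them.

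Among these targets, PTX3, a soluble pattern recognition protein induced by IL1 and TNF, had blood levels of 17.30, 11.32, 14.01 and 13.49 and endometrial levels of 11.11, 6.95, 8.43 and 12.97. Blood was the higher tissue in 4 of 4 animals, by the least in animal 4. Its log2 ratio was -4.16 ± 0.94, with an adjusted p of 0.123 in limma. By quantitative PCR on part of the array samples, the paper reports PTX3 as numerically higher in endometrium, opposite to the arrays. In its separate samples PTX3 was higher in blood, but not significantly. PTGS2, the inducible enzyme of prostaglandin synthesis, had a log2 ratio of -3.08 ± 0.85 and an adjusted p of 0.185 in limma, below 0 in 4 of 4 animals. CXCL8, the neutrophil chemokine, had one of -2.08 ± 0.65 and an adjusted p of 0.215 in limma, also below 0 in 4 of 4. In animals 2 to 4 alone the ratios were -3.49 for PTX3, -2.21 for PTGS2 and -1.52 for CXCL8.

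Regulators of NF-kB, the transcription factor downstream of IL1 and TNF receptors, passed the unadjusted threshold in the same direction. The log2 ratio was -2.48 ± 0.76 for TNFAIP3, with an adjusted p of 0.214 in limma, and -2.57 ± 0.77 for BCL3 and -1.58 ± 0.51 for NFKBIZ, with 0.210 and 0.226. Without animal 1 they were -2.07, -2.64 and -1.44. TNFAIP3 was not well above background in endometrium of animal 3. NFKBIA, the inhibitor that retains NF-kB in the cytoplasm, had a ratio of -0.91 ± 0.49 and did not pass.

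SAA3 and TGFBI passed the unadjusted threshold toward endometrium. The former, an acute phase protein induced by IL1 and IL6, had blood levels of 11.67, 8.45, 10.74 and 7.35 and endometrial levels of 15.36, 12.83, 15.36 and 8.80. Endometrium was the higher tissue in 4 of 4 animals, although the level of animal 4 lay below blood levels of animals 1 and 3. The log2 ratio was 3.53 ± 0.64, or 11.6-fold, with an adjusted p of 0.0589 in limma. TGFBI, an extracellular matrix protein induced by TGFB1, had a log2 ratio of 1.81 ± 0.73 and an adjusted p of 0.300 in limma, above 0 in 4 of 4 animals. In animals 2 to 4 alone they were 3.48 for SAA3 and 2.27 for TGFBI.

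**Figure D4:**
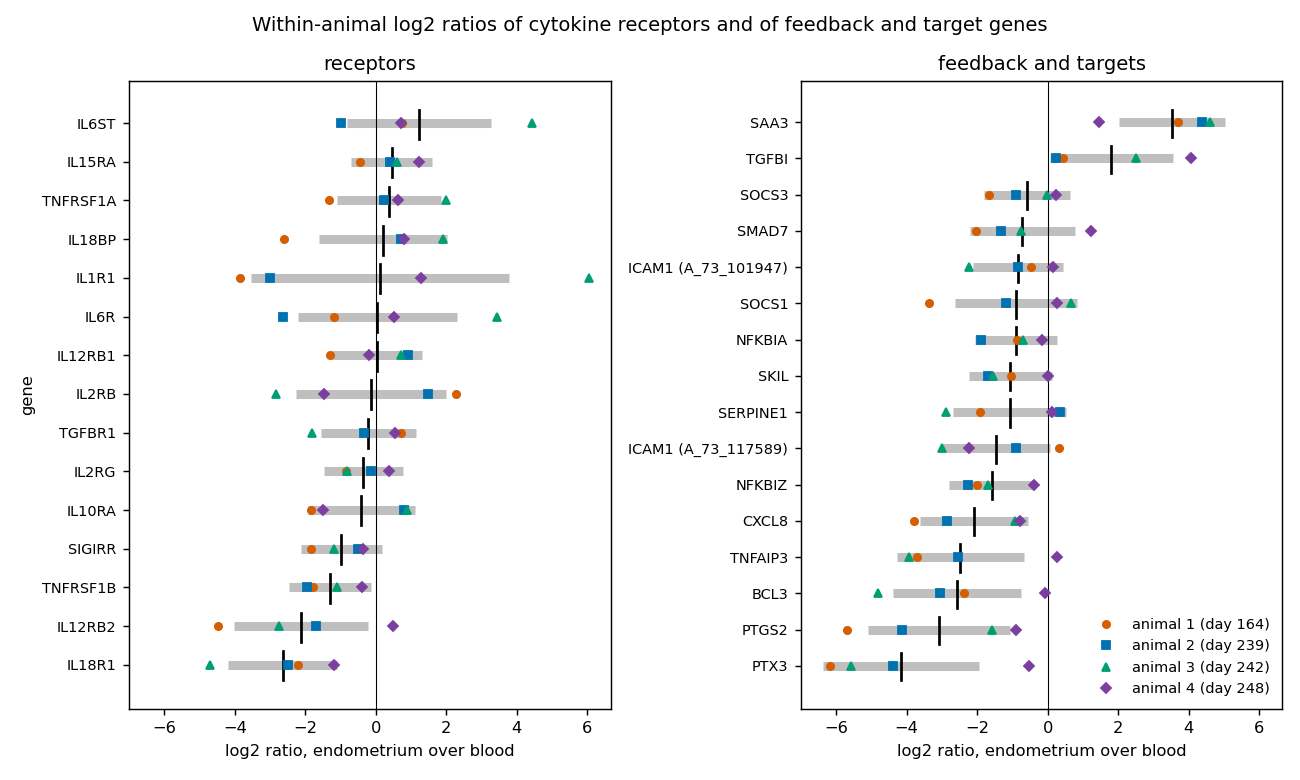
Log2 ratio of endometrium over blood (x axis) of the tested receptor probes and of the tested feedback and target probes (y axis), with a symbol per animal, a black line at the mean and a grey bar for the 95% interval from limma. SAA3 and TGFBI were above 0 and PTX3, PTGS2, BCL3, CXCL8, NFKBIZ, IL18R1 and TNFRSF1B below 0 in all 4 animals.

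Of 15 tested receptor probes, 3 passed the unadjusted threshold toward blood, against 8.05% of all tested probes. Toward endometrium 0 of the 15 passed, against 7.98%, and their median log2 ratio was -0.13. IL18R1, the ligand-binding chain for IL18, had a ratio of -2.64 ± 0.65 and an adjusted p of 0.154 in limma. Its levels were 5.81, 9.47, 7.71 and 9.72 in blood and 3.61, 6.97, 3.01 and 8.54 in endometrium, and they were lower in blood of animal 1 than in that of the other animals, unlike IL18 itself. IL12RB2, the signalling chain of the IL12 receptor, had a ratio of -2.11 ± 0.80 and an adjusted p of 0.275 in limma. TNFRSF1B, the TNF receptor of leukocytes, had a ratio of -1.30 ± 0.49 and an adjusted p of 0.271 in limma, below 0 in 4 of 4 animals. With animal 1 left out, the ratios were -2.79 for IL18R1, -1.32 for IL12RB2 and -1.15 for TNFRSF1B. IL18R1 in endometrium of animal 3 and IL12RB2 in endometrium of animal 1 were not well above background.

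For the other receptors the mean log2 ratio ranged from -0.98 for SIGIRR, an inhibitor of IL1 receptor signalling, to 1.22 for IL6ST, the signalling chain of IL6. IL1R1, the signalling IL1 receptor, had a ratio of 0.12 ± 1.55, and IL6R one of 0.05 ± 0.96. IL10RA had one of -0.41 ± 0.64, IL12RB1 one of 0.04 ± 0.54 and IL15RA one of 0.45 ± 0.49. IL15RA was well above background in 3 of 8 blood and 4 of 8 endometrial channels, so its ratio rests in part on unmeasured levels. The ratio was 0.38 ± 0.62 for TNFRSF1A, -0.21 ± 0.57 for TGFBR1 and 0.22 ± 0.77 for IL18BP, the secreted protein that binds IL18. The intervals of all these included 0 and were wide, reaching from -3.54 to 3.78 for IL1R1, which was well above background in 6 of 8 channels of each tissue. With animal 1 left out, the ratio was 1.44 for IL1R1, 0.45 for IL6R and 0.07 for IL10RA. IL1R2, the decoy receptor for IL1, was well above background in animal 1 only, at 10.34 in blood and 5.86 in endometrium, as IL12B was.

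Of 13 tested probes for processing and activation, 1 passed the unadjusted threshold in each direction, a share near the 7.98% and 8.05% over all tested probes. NLRP3, the sensor of the inflammasome that activates caspase 1, had blood levels of 15.49, 9.17, 7.59 and 8.44 and endometrial levels of 11.55, 6.59, 7.11 and 6.99. Its log2 ratio was -2.11 ± 0.65, or -1.50 without animal 1, with an adjusted p of 0.214 in limma over 4 animals, and both preparations of animal 1 were above the rest, as for IL1B. CASP1, which cleaves IL1B and IL18, had a ratio of -0.79 ± 0.70 and did not pass, with animal 1 again highest in each tissue. ITGB6, an integrin chain that activates latent TGFB1 and is made by epithelium, had a ratio of 2.80 ± 0.59 and an adjusted p of 0.103 in limma, and the epithelial markers given above were also higher in endometrium. It was not well above background in blood of animals 2 and 4 or endometrium of animal 4, so its ratio there is not a measured one. Of 9 tested probes for related ligands, 0 passed, and IFNG, the product of T and NK cells that IL18 induces, had a ratio of 1.24 ± 0.68. Its blood level in animal 1, 5.62, was below the 9.24 to 11.39 of the other animals, as for the T and NK cell markers.

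Likeness of level was described for the 3 member probes with the highest mean level among those well above background in all 16 channels, over 8 preparations of 4 animals that share arrays in pairs. Among 10888 named probes, IL1RN had the highest Pearson r with NOD2, an intracellular sensor of bacterial cell wall, at 0.977, and then with CHI3L1 at 0.966 and RNF144B at 0.944. Over the 6 preparations without animal 1 these were 0.967, 0.913 and 0.939. The genes were picked by an r that includes these 6, so the second r is no separate support. The TNF probe A_73_111827 was most like TM2D1, ZMYND15 and BLVRA, with r of 0.978, 0.978 and 0.975, and of 0.921, 0.894 and 0.910 over the 6. The TNF probe A_73_120282 was most like AKR7A2, UQCRC1 and SLC7A7, with r of 0.980, 0.959 and 0.955, and of 0.916, 0.832 and 0.802 over the 6. The 2 probes of this gene thus had no nearest genes in common.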

How the data were processed

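RNA of blood and endometrial CD14+ cells of 4 cows was hybridised to 8 Agilent 2-colour arrays. The value table deposited by the authors holds log2 values, which per the methods were normalised by lowess and then by quantiles. The scanner files deposited by the authors hold median and processed intensity of each spot, with flags. Their headers name Feature Extraction 10.5.1.1 and the submitters' processing notes 9.5. At 100% of probes with 2 spots, within 0.001, a column of the table held the values of its labelled dye from the file given for the animal's other array. Flags and intensities were read in this way.

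Spots of a probe and both arrays of an animal were averaged. The log2 ratio within animals was tested against 0 with lmFit and eBayes (limma 3.58.1, statmod 1.5.0, R 4.3.3), with Benjamini-Hochberg adjustment over 16654 probes. A probe was tested if 1 tissue or both had 4 or more of 8 channels well above background. Animals pair the tissues, and deviations from the tissue means correlated within animals with r of 0.628, 0.372, 0.239 and 0.452. The fit was tested on simulated data. An exact permutation test over 4 pairs cannot give a p under 0.125. Arrays have no depth, and their number limits precision. By the scanner's flags, 0 of 16 channels held a saturated spot of a member.

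The members and gene lists were chosen with earlier results of these data known. Named were all member probes, any called pathway gene, fixed receptors and the probes most like 3 members. Other pathway genes were named after their values were seen. A probe of another gene with the symbol PAG1 was then left out of the trophoblast list. Alternatives changed intensities, normalization, centring, filter, pairing, slide, dye term, animals, test and threshold.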

Additional observations from a re-analysis of the deposited data

Results flagged for a closer look

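Of 69 sets of 4 animals tested for a value far from the other 3, 6 held one by Dixon's criterion, and about 5% of sets are flagged by chance. In the blood of animal 1, the log2 level was 16.77 for IL6, 11.49 for IL12B and 16.44 for TNFRSF1A, above the next animal by 6.57, 7.08 and 3.22. In endometrium of animal 1, it was 5.41 for IL12B and 5.80 for IL15, above the next by 2.27 and 3.18, where the other 3 animals were not well above background. In endometrium of animal 2, IL1RN was at 11.32, below the next by 2.52. Of these 6 values, 5 belong to the animal whose preparations also had the highest CD14 level.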

How the results depend on the processing

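Of the 9 tested cytokine probes, 0 were called under every alternative with adjusted p-values, and 4 passed at the unadjusted threshold. The count of all called probes, 224, was 11 with scanner median intensities, 123 without a filter on dim probes, 58 at an adjusted p of at most 0.01, 2670 at the unadjusted threshold and 0 by the methods' analysis of variance. Centring each ratio on its median, which moved the median of all probes from -0.14 to -0.0085, gave 229. Leaving out 1 animal at a time gave 0 to 180 called probes, with 64 without animal 1, 95 without animal 3 and 0 without animal 4, and 0 member and 0 pathway probes each time. Without the replicate block, which is the pairing by animal, 38 were called, and no call of a member or pathway probe changed. The count of pathway probes was 1, SAA3, with the stricter filter on background, with the second technical replicate only and with a dye term and animal as random block, and 13 at the unadjusted threshold. The cause of these differences was not tested.

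Ratios of IL1A, IL1B, IL10, IL18, TGFB1 and the TNF probe A_73_111827 kept their sign under 14 alternatives each, the scanner files as attached aside, with ranges of 0.51 to 1.69, -3.43 to -1.94, -3.05 to -1.50, 1.05 to 1.92, -1.63 to -0.84 and 0.42 to 0.79. The ratio of IL1RN turned to -0.11 with the first technical replicate only, to -0.0048 with a dye term and random block, to -0.16 without animal 3 and to -0.35 without animal 4, and reached 0.66 without animal 1. That of IL6 turned to 1.56 without animal 1 and was -1.57 without animal 3, and that of the TNF probe A_73_120282 turned to -0.034 without animal 4 and was 0.56 without animal 3. With the scanner files as attached, an alternative added after the data were seen that exchanges the tissues of 3 animals, 0 probes were called, and the ratio was 0.97 for IL1B, 1.82 for IL6, 0.48 for IL10, -0.64 for IL18, -0.21 and -0.48 for the TNF probes and 0.53 for TGFB1.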
